A study of Mus musculus with 189 samples.

Results

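Serglycin, the core protein of the heparin proteoglycan of mast cell granules, and 9 enzymes that build heparin chains were followed in single mouse mast cells. The 10 genes were taken by symbol (Srgn, Xylt1, Ext1, Ext2, Ndst1, Ndst2, Glce, Hs2st1, Hs6st1 and Hs3st1) from the 46078 gene rows of the count table. The rule itself uses no measured value, but the genes were chosen with earlier results of these data known. RNA was sequenced from 189 peritoneal cells of female C57BL/6 mice, 94 sorted as mature mast cells and 95 as basophil-mast cell progenitors (BMCPs), and 187 cells with at least 100000 reads on genes were used. Both groups were live, lineage-negative, c-Kit-positive and FcεRI-positive cells. Mature mast cells were integrin β7 low with high side scatter, and BMCPs were integrin β7 high with low side scatter. The ages of the mice, any treatment and any modified allele are not given in the sources used here. The cells came from 4 mice, but no cell is tied to a mouse, so each gate is a single pooled sample. No difference between the gates therefore has a replicate check, and none was tested.

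Serglycin is a small secretory granule protein whose run of serine-glycine repeats carries the sugar chains. In connective tissue mast cells, such as those of the peritoneum, these chains are heparin, and their negative charge holds proteases and histamine in the granule. Synthesis starts with a xylose on serine and a short linkage sugar, after which Ext1 and Ext2 extend the chain. Ndst enzymes then exchange N-acetyl for N-sulfate groups, Glce converts glucuronic to iduronic acid, and O-sulfotransferases add sulfate at the 2-O, 6-O and 3-O positions. Ndst2 is known as the N-deacetylase/N-sulfotransferase on which heparin of connective tissue mast cells depends.

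The attachment region of serglycin is shown because its serines carry the chains that the enzymes below build. In transcript Srgn-204 of GENCODE release M21 the coding sequence has 152 codons, of which codons 90 to 109 form 10 serine-glycine pairs in an unbroken run. The stretch of 90 bases printed lies at chr10:62494983-62495072 of GRCm38 on the minus strand, in exon 4 of 4, and its capitals mark the serine-glycine codons.
Srgn codons 85 to 114: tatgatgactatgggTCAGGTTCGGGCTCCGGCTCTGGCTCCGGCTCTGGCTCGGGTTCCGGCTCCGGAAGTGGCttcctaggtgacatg

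Kept mature mast cells had 561600 to 2152221 reads on genes and kept BMCPs 344022 to 2091665. Levels are in CPM, which puts a gene's reads relative to a common total of reads on genes, and pooled levels sum the reads over the cells of a gate. Their 95% Poisson intervals, like the 95% Clopper-Pearson intervals of shares, cover counting error only, since PCR copies could not be told from separate molecules. A log2 ratio is log2 of mature CPM + 1 over BMCP CPM + 1, and its median was -0.25 over the 10556 genes that reached 5 CPM in either gate, with quartiles of -0.79 and 0.28. Of these genes, 9.9% were at least 2-fold higher in mature mast cells and 19.2% at least 2-fold higher in BMCPs. Scaling to ERCC spike-in RNA moved that median to 0.64, so a position relative to the median is given beside the ratio. The ratios are of shares of a gate's RNA, not of amounts per cell. Mature mast cells had a median of 939 gene reads per ERCC read and BMCPs 562. Genes detected per cell after thinning to 100000 reads had a median of 2902.5 in mature mast cells and 2474 in BMCPs.

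The mast cell identity list (8 genes) summed to 113249 to 329102 CPM per mature mast cell and to 349 to 323828 CPM per BMCP. All 8 of its genes reached 50 reads in a cell of each gate. Summed T cell markers were at 0 CPM in the mature gate and 7.20 CPM in BMCPs, with Cd3d, Cd3e and Cd3g at 0 reads. Natural killer cell markers gave 0 and 0.996 CPM, and macrophage markers 3.48 and 2.52 CPM with Adgre1 and Csf1r at 0. Neutrophil, erythroid and mesothelial markers each stayed below 0.1 CPM in both gates. Eosinophil markers gave 3.32 and 15.9 CPM, and basophil markers 3491 and 5259 CPM. The 6 B cell markers summed to 257 CPM in mature cells and 1832 in BMCPs, and BMCP numbers 46 and 80 held 90.8% of the BMCP reads. Those wells had 3 Kit reads each and granule cargo shares of 0.0553% and 0.0499% of reads, so values that rest on them are also given without them.

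A run of neighbouring table columns also stood apart, in Srgn itself. The columns fall into 23 runs over which the cell numbers rise in steps, and the run of 8 BMCPs from number 52 to number 93 held 7 kept cells with 9267 to 17752 CPM of Srgn, a median of 14538 CPM. The highest of the other 86 kept BMCPs had 8954 CPM, and the other 22 runs had Srgn medians of 2707 to 5808 CPM. The eighth cell, number 93, which was left out for its depth, had 59207 CPM. No other gene of the 46078 gene rows had at least 4 of the 7 cells above every other BMCP. Since the run was picked by its Srgn, this count does not measure how unusual Srgn is. The 7 cells held 24.4% of the BMCP reads of Srgn and 9.28% of the BMCP gene reads. The labels do not say what the columns of a run share, and the cause was not tested, so Srgn is given with and without these cells.

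Srgn (ENSMUSG00000020077, chromosome 10, 62493833 to 62527451, minus strand) had nearly the same median level in both gates. Mature mast cells ran from 1894 CPM through a median of 4412 CPM to 10116 CPM, with quartiles of 3765 and 5867 CPM. BMCPs ran from 19.6 CPM through a median of 4414 CPM to 17752 CPM, with quartiles of 3561 and 5761 CPM. The quartiles overlapped, 5 BMCPs lay below the lowest mature mast cell, and the 6 BMCPs above the highest were all of the run that stood apart. Pooled Srgn was 4768 CPM (4755 to 4780) in mature mast cells and 5368 CPM (5355 to 5381) in BMCPs, a log2 ratio of -0.17, which is 0.08 above the median of all genes. Without the 7 cells of the run, BMCPs had 4474 CPM pooled, a median of 4328 CPM and a maximum of 8954 CPM, and the log2 ratio turned to 0.09, which is 0.33 above the all-gene median of those cells. The sign also changed with the scaling, and the all-gene median moved too. With all cells the ratio was 0.74 with counts scaled to ERCC reads, beside an all-gene median of 0.64. With TMM factors it was 0.075, beside -0.01, so Srgn stayed above the all-gene median in both.

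**Figure D1:**
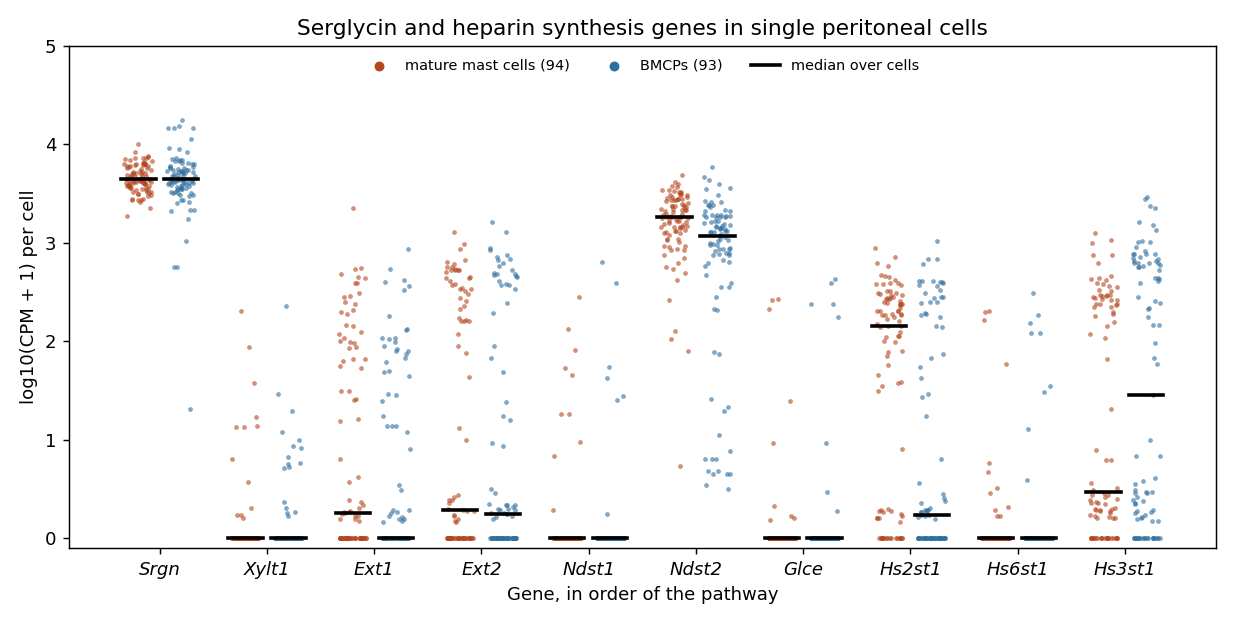
Level of each of the 10 genes in every kept cell as log10 of CPM + 1, one point per cell, with a bar at the median of each gate. Srgn runs from 1894 to 10116 CPM in mature mast cells and from 19.6 to 17752 CPM in BMCPs around like medians, Ndst2 lies lower with a tail of BMCPs near 0, and each other enzyme has many cells at or near 0.

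The first and second blocks of the table's columns, which the labels do not name as plates, gave opposite directions for Srgn. In the first 47 mature mast cells and 47 kept BMCPs, Srgn was 4870 and 4315 CPM (log2 ratio 0.17). In the other 47 mature mast cells and 46 kept BMCPs, it was 4678 and 6404 CPM (log2 ratio -0.45). The all-gene medians of these blocks were both -0.22, so Srgn was above that median in the first block and below it in the second. The run of columns lies in the second block, and without its 7 cells Srgn was 4678 and 4667 CPM there (log2 ratio 0.004).

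Among genes of at least 1000 CPM, Srgn was among the evener ones in mature mast cells. Its coefficient of variation (CV, SD over mean) was 0.316 over mature mast cells, where the 75 abundant genes had a median of 0.484 and 10.7% of them had a lower CV. Over BMCPs its CV was 0.598, where the 83 abundant genes had a median of 0.716 and 30.1% had a lower CV. Ndst2 had CVs of 0.527 and 0.868, above the median of these genes in both gates. Without BMCP numbers 46 and 80, the BMCP CVs were 0.580 for Srgn and 0.846 for Ndst2. Without the 7 cells of the run, the CV of Srgn over BMCPs was 0.373. Those cells were picked for their high Srgn, and leaving them out lowers its CV, so this value is not ranked against other genes.

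Individual BMCPs made up the low end of Srgn. BMCP number 40 had 14 Srgn reads (19.6 CPM) beside 1434 Kit reads, 2447 CPM of Ndst2 and a cargo share of 2.40%. That cell had 97.4 gene reads per ERCC read, below the BMCP lower quartile of 412. BMCP number 55 had 574 CPM of Srgn with 1 Kit read and 24.7 gene reads per ERCC read, far below the BMCP median of 562. The B cell marker wells 46 and 80 had 574 and 1052 CPM of Srgn, and without them the BMCP median was 4476 CPM and the pooled level 5484 CPM. Every mature mast cell had at least 50 Srgn reads, as did 92 of the 93 BMCPs, those wells included.

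Xylt1 (ENSMUSG00000030657, chromosome 7, 117380979 to 117673580, plus strand) is a xylosyltransferase that places the first sugar on serine. It stayed under 5 CPM in both gates, with 3.85 CPM in mature cells and 4.51 in BMCPs. At least 50 reads were seen in 2 mature mast cells and 1 BMCP, and mature mast cell number 68 and BMCP number 82 alone held 49.1% and 71.4% of the reads. The log2 ratio of -0.18 became -0.89 without the first of these cells and 1.07 without the second, so no direction can be read. Its paralog Xylt2 had 24.6 and 4.2 CPM, and per kilobase of exon it made up 93.9% and 69.3% of the pair. In BMCPs 98.6% of Xylt2 reads came from number 17, and the log2 ratio of 2.30 was 4.59 without it.

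The linkage list of 7 genes, which complete the short sugar on which chains grow, was sparsely read. B4galt7, which adds the first galactose, had 39.7 CPM in mature cells and 103.2 in BMCPs (log2 ratio -1.36). Fam20b, the kinase that phosphorylates the xylose, had 70.1 and 35.5 CPM (log2 ratio 0.96, or 1.59 in the first block). B3gat3, which adds the glucuronic acid, had 36.03 and 42.8 CPM (log2 ratio -0.24, or 0.59 in the first block, 0.65 with ERCC scaling and 0.10 without the BMCP with most reads). Of the list, 5 genes reached 5 CPM, with 1 at least 2-fold higher in each gate, beside 9.9% (mature) and 19.2% (BMCP) of all genes.

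Ext1 and Ext2 encode the partner subunits of the polymerase that lengthens the chain. Ext1 (ENSMUSG00000061731, chromosome 15, 53064038 to 53346159) had 96.2 CPM in mature cells and 46.3 in BMCPs (log2 ratio 1.04, or 1.29 above the all-gene median). Cells with at least 50 reads were 31 of the 94 mature ones (32.98%, 23.6 to 43.4%) and 22 of the 93 BMCPs (23.7%, 15.5 to 33.6%). Mature mast cell number 21 held 26.7% of the mature reads, at 2240 CPM where the next cell had 556 CPM, and the log2 ratio was 0.61 without it. BMCP number 30 held 21.4% of the reads of its gate, and the log2 ratio was 1.36 without it. It was 0.96 without the run of columns that stood apart in Srgn, and 1.30 and 0.72 in the blocks, so the 2-fold difference was not kept throughout. Ext2 (ENSMUSG00000027198, chromosome 2, 93661028 to 93822568) was nearer between the gates, with 175 and 144 CPM (log2 ratio 0.27, or 0.17 to 0.42 with each cell left out in turn), and at least 50 reads in 37 mature mast cells and 27 BMCPs. Both genes were above the median of all genes in both blocks of columns.

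The proteins work as a pair, and their RNAs were met together about as often as their separate shares give. At 50 reads or more, 11 mature mast cells held both Ext1 and Ext2, 20 held only Ext1, 26 only Ext2 and 37 neither. In BMCPs the counts were 6, 16, 21 and 50 cells. The product of the separate shares would place both genes in 12.2 mature mast cells and 6.39 BMCPs. Spearman's rho between the pair was -0.16 over the mature mast cells and 0.03 over BMCPs. The Ext-like gene Extl2 had 24.7 and 30.1 CPM (log2 ratio -0.28, or -1.76 and 1.5 in the blocks, 0.61 with ERCC scaling and 0.18 without the BMCP with most reads). Extl1 had 8.17 and 36.2 CPM, but BMCP number 55 held 78.3% of the BMCP reads, and the log2 ratio of -2.02 was 0.040 without that cell.

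Ndst2 (ENSMUSG00000039308, chromosome 14, 20723730 to 20734562, minus strand) was the most read of the 9 enzymes and was carried by nearly every mature mast cell. Mature mast cells ran from 4.41 CPM through a median of 1831 CPM to 4900 CPM, with quartiles of 1247 and 2681 CPM. BMCPs ran from 2.18 CPM through a median of 1164 CPM to 5962 CPM, with quartiles of 473 and 1829 CPM. The gates overlapped widely, and the lower quartile of BMCPs lay well below that of mature mast cells. Pooled Ndst2 was 1857 CPM (1850 to 1865) and 1295 CPM (1289 to 1302), a log2 ratio of 0.52, or 0.77 above the all-gene median. The ratio was 0.45 and 0.60 in the blocks of columns and 0.48 without BMCP numbers 46 and 80. It lay between 0.49 and 0.58 when each kept cell was left out in turn.

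More mature mast cells than BMCPs carried Ndst2 at 50 reads or more, a difference of pooled gates that was not tested. Cells with at least 50 reads were 93 of the 94 mature ones (98.9%, 94.2 to 99.97%) and 78 of the 93 BMCPs (83.9%, 74.8 to 90.7%). Over all genes tested, the median difference in this share was 2.07 percentage points in favour of mature mast cells. After thinning each cell to 100000 reads, 94 mature mast cells and 87 BMCPs had at least 1 Ndst2 read. The 15 BMCPs under 50 reads had 3 to 34 Ndst2 reads, and the next cell had 72. BMCP numbers 46 and 80 were among them, with 2.45 and 3.51 CPM of Ndst2. The other 13 carried 2171 to 17752 CPM of Srgn, 173 to 9781 Kit reads and cargo shares of 3.29 to 32.2%, so Kit, Srgn and cargo were read in every cell of the 13. The BMCP highest in Srgn, number 58 with 17752 CPM, was of this kind, with 31 Ndst2 reads (18.8 CPM). It and 1 more of the 15 belong to the run of columns, and the highest Srgn of the rest was 8343 CPM. The single mature mast cell under 50 reads was number 21, with 6 Ndst2 reads, 6326 CPM of Srgn and the highest Ext1 of its gate. Without numbers 46 and 80, the BMCP median of Ndst2 was 1244 CPM and the pooled level 1327 CPM.

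**Figure D2:**
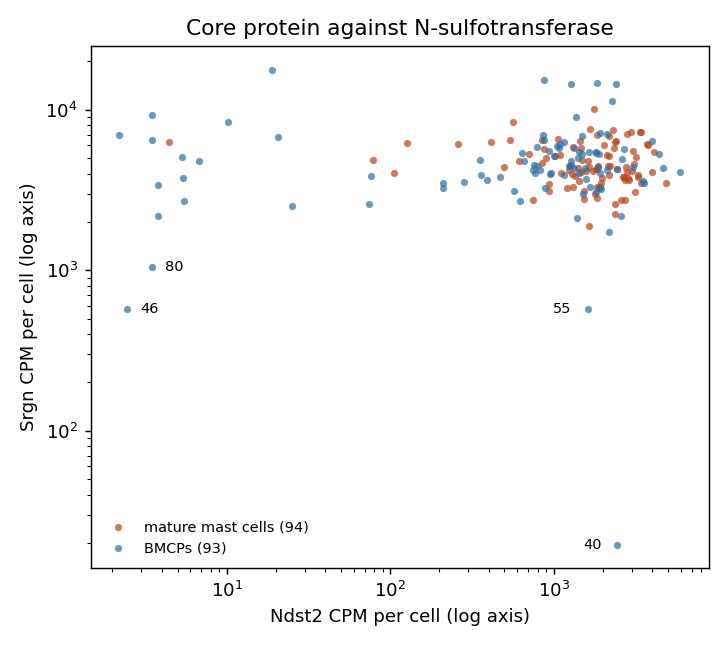
Srgn CPM against Ndst2 CPM in every kept cell, both on log axes, one point per cell coloured by gate, with the numbers of 4 BMCPs of low Srgn or Ndst2 printed beside their points. Mature mast cells gather at high values of both genes, while 15 BMCPs have under 50 Ndst2 reads and all but numbers 46 and 80 of them keep at least 2171 CPM of Srgn.

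Ndst1 (ENSMUSG00000054008, chromosome 18, 60684494 to 60748650, minus strand), the family member known as the main N-sulfotransferase of heparan sulfate in most tissues, was close to unread. It had 5.34 CPM in mature cells and 11.4 in BMCPs, with at least 50 reads in 4 and 2 cells. A single cell of each gate weighed heavily, mature mast cell number 18 with 39.4% of the reads of its gate and BMCP number 5 with 50.9%. The log2 ratio of -0.97 was -1.55 without the former and -0.07 without the latter, and it was -1.38 and 0.87 in the blocks of columns. Per kilobase of exon, Ndst2 was 633 times Ndst1 in mature mast cells and 206 times in BMCPs, and it made up 99.8% and 99.5% of the family of 4. Ndst3 had 0 reads in the mature gate and 0.15 CPM among BMCPs, and Ndst4 had 0 reads in both.

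**Figure D3:**
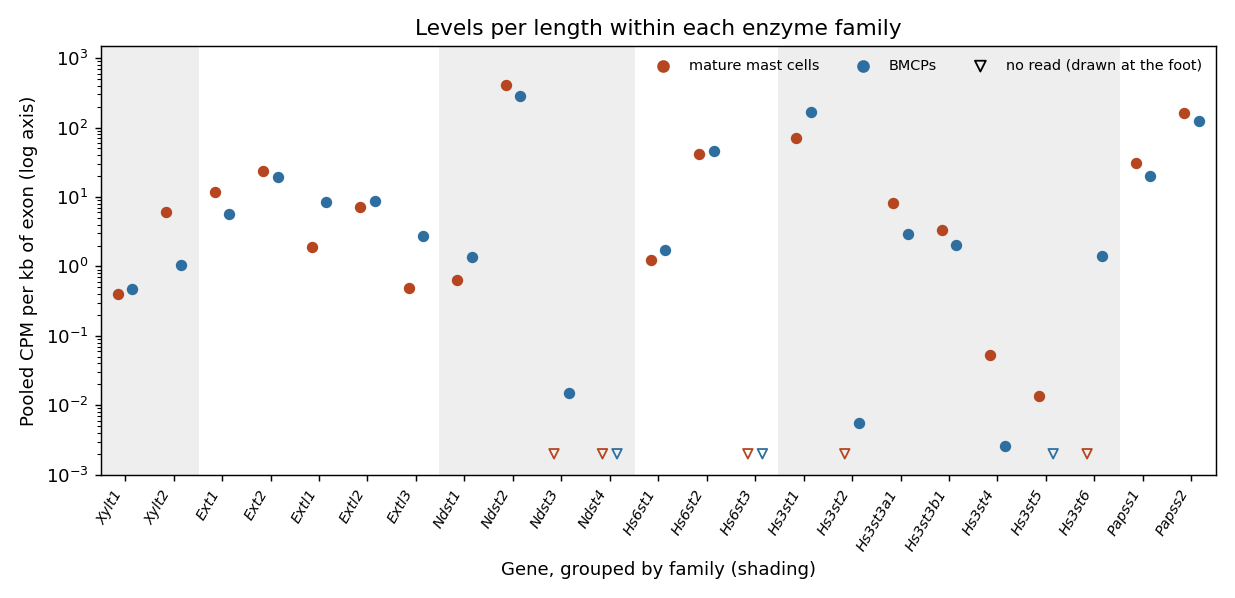
Pooled CPM per kilobase of exon on a log axis for the paralogs of each enzyme family, shaded by family, with a point per gate and open triangles at the foot for genes without a read. Ndst2, Hs6st2, Hs3st1 and Papss2 stand highest in their families in both gates, with Ndst2 at 409 and 285 and Ndst1 at 0.645 and 1.38 CPM per kilobase.

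Glce (ENSMUSG00000032252, chromosome 9, 62057248 to 62122655), the epimerase that makes iduronic acid, had 8.59 CPM in mature cells and 17.7 in BMCPs. It reached 50 reads in 3 and 5 cells. Of the reads of their gates, number 81 of the mature mast cells held 36.1% and number 95 of the BMCPs 35.4%, and the log2 ratio of -0.97 was -1.52 without the former and -0.40 without the latter. Glce shared 1.13% of its exon bases with the microRNA gene Mir5133.

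Hs2st1 (ENSMUSG00000040151, chromosome 3, 144429706 to 144570181), which adds the 2-O-sulfate to iduronic acid, was read in more mature mast cells than BMCPs, a difference that was not tested. Its cell median was 144 CPM (quartiles 0.781 and 270) in mature mast cells and 0.743 CPM (quartiles 0 and 178) in BMCPs. The median BMCP thus had almost no Hs2st1 read. Cells with at least 50 reads were 60 of the 94 mature ones (63.8%, 53.3 to 73.5%) and 31 of the 93 BMCPs (33.3%, 23.9 to 43.9%). After thinning, at least 1 read was found in 66 and 32 cells. Among cells with at least 50 reads the order was not the same, with medians of 239 CPM (quartiles 159 and 315) in mature mast cells and 280 CPM (182 and 401) in BMCPs. Pooled levels were 175 and 101 CPM (log2 ratio 0.79, or 1.04 above the all-gene median), and the log2 ratio was 1.30 and 0.53 in the blocks of columns.

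Hs3st1 (ENSMUSG00000051022, chromosome 5, 39613935 to 39755475), which adds the rare 3-O-sulfate known from the antithrombin-binding site of heparin, went the other way. Mature mast cells had a median of 1.97 CPM with quartiles of 0.60 and 265 CPM, and BMCPs a median of 27.2 CPM with quartiles of 0.61 and 629 CPM. Pooled levels were 155 CPM and 380 CPM (log2 ratio -1.28, or 1.03 below the all-gene median). At least 50 reads were found in 40 mature cells (42.6%, 32.4 to 53.2%) and 46 BMCPs (49.5%, 38.9 to 60.03%). Among those cells the medians were 289 CPM (quartiles 232 and 400) in mature mast cells and 629 CPM (392 and 816) in BMCPs. Its log2 ratio was -1.89 and -0.75 in the blocks of columns and -1.40 to -1.17 when each cell was left out in turn, so the 2-fold difference was not met in the second block. Of the other 3-O-sulfotransferases, Hs3st3a1 had 32.4 CPM in mature cells and 11.6 in BMCPs (log2 ratio 1.40). Per kilobase of exon, Hs3st1 made up 85.6% and 96.4% of the Hs3st genes, and Hs3st3a1 10.1% and 1.67%.

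**Figure D4:**
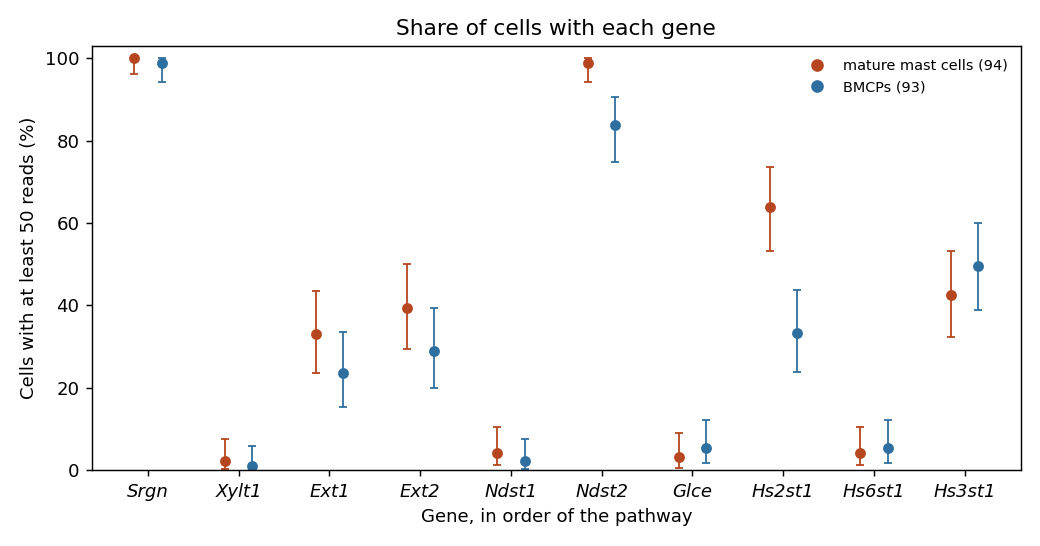
Percentage of kept cells with at least 50 reads of each of the 10 genes in mature mast cells and BMCPs, with exact 95% binomial intervals. Ndst2 is at 98.9% and 83.9%, Hs2st1 at 63.8% and 33.3% and Hs3st1 at 42.6% and 49.5%, and the intervals cover the counting of cells only and do not test the gates.

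Hs6st1 (ENSMUSG00000045216, chromosome 1, 36068400 to 36106446, plus strand), a 6-O-sulfotransferase, had 6.81 CPM in mature cells and 9.61 in BMCPs, with at least 50 reads in 4 and 5 cells. Of the reads of their gates, number 75 of the mature mast cells held 35.2% and number 8 of the BMCPs 28.5%, and the log2 ratio of -0.44 moved to between -0.95 and -0.02 as single cells were left out. An antisense gene, Gm37335, overlaps 8.07% of its exon bases, and since strand use in counting is not given, reads there cannot be assigned. The 6-O-sulfotransferase that these cells carried was Hs6st2, with 328 and 359 CPM and at least 50 reads in 76 mature mast cells and 67 BMCPs. Per kilobase of exon it was 34.2 and 26.5 times Hs6st1 and 97.2% and 96.4% of the family, and Hs6st3 had 0 reads. Its log2 ratio was -0.13, with 0.02 and -0.27 in the blocks of columns and 0.78 with ERCC scaling.

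Across the 10 genes the order of level per kilobase of exon was the same in both gates, except that Glce and Hs6st1 changed places in mature mast cells when the longest transcript set the length. Srgn stood first with 2171 CPM per kilobase in mature mast cells and 2445 in BMCPs, followed by Ndst2 with 409 and 285. Next came Hs3st1 with 69.6 and 170, then Ext2 with 23.8 and 19.7, Hs2st1 with 21.3 and 12.3, and Ext1 with 11.9 and 5.73 CPM per kilobase. Glce, Hs6st1, Ndst1 and Xylt1 ran from 2.60 CPM per kilobase down to 0.399. Quartiles over cells separated Srgn from Ndst2 in both gates and Ndst2 from Hs3st1 in mature mast cells, and all other neighbours in the order overlapped.

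Of the 10 genes, 9 reached 5 CPM in a gate, and of these Ext1 was at least 2-fold higher in mature mast cells, beside 9.9% of all genes, and Hs3st1 at least 2-fold higher in BMCPs, beside 19.2% of all genes. With 1 gene of 9 in each direction, these counts do not set the genes apart from the background. Relative to the all-gene median, Srgn, Ndst2, Ext1, Ext2 and Hs2st1 were above and Ndst1, Glce, Hs6st1 and Hs3st1 below. With ERCC scaling the all-gene median was 0.64, and Ndst2 (1.43), Ext1 (1.95), Ext2 (1.18) and Hs2st1 (1.70) lay above it. Hs6st1 (0.38) and Xylt1 (0.58) turned positive but lay below it, and Ndst1 (-0.17), Glce (-0.13) and Hs3st1 (-0.37) stayed negative. The median log2 ratio of the 9 enzymes was -0.18, which is the value of Xylt1 itself, and over the other 8 it was -0.08. The log2 ratio of the summed CPM of the 9 was 0.30, a sum of which Ndst2 made up 74.8% in the mature gate and 64.5% among BMCPs. Summed enzyme CPM per cell had a median of 2428 CPM (quartiles 1819 and 3209) in mature mast cells and 1892 CPM (1385 and 2778) in BMCPs, which overlap. A mature mast cell had a median of 3 enzymes with at least 50 reads (range 1 to 7) and a BMCP 2 (range 0 to 5). No enzyme reached 50 reads in 6 BMCPs, and these included the B cell marker wells, numbers 46 and 80. After thinning the median number of enzymes with a read was 3 in both gates.

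The 6 members with wide detection (Srgn, Ndst2, Ext1, Ext2, Hs2st1 and Hs3st1) had weak correlations from cell to cell. Over their 15 pairs, Spearman's rho ran from -0.16 (Ext1 and Ext2) to 0.16 (Ndst2 and Ext2) in the 94 mature mast cells. In the 93 BMCPs it ran from -0.14 (Hs2st1 and Hs3st1) to 0.22 (Srgn and Ext1), and without the 7 cells of the run Srgn reached 0.31 with Hs2st1. Srgn and Ndst2 themselves had a rho of -0.11 in mature mast cells and 0.07 in BMCPs. Each pair of values shares a library and its total, and at such sizes in sparse counts no relation can be read.

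The granule proteases that serglycin binds had larger log2 ratios between the gates than serglycin, a difference that was not tested. The 7 cargo genes took a median of 27.2% of a mature mast cell's reads (quartiles 25.2 and 29.5%) and 15.6% of a BMCP's (8.08 and 22.0%). All 7 lay above the all-gene median, and their median log2 ratio was 0.73. Of the 7, 2 were at least 2-fold higher in mature mast cells, beside 9.9% of all genes. The chymases Mcpt4 and Cma1 had log2 ratios of 1.98 and 0.72, the tryptases Tpsab1 and Tpsb2 1.38 (0.88 in the second block) and 0.73, and carboxypeptidase Cpa3 0.45. With the cargo genes left out of the totals, the log2 ratio of Srgn was 0.028 and the all-gene median -0.06. Over BMCPs, rho with the cargo share was 0.29 for Srgn, 0.31 for Ndst2 and -0.20 for Hs3st1, and without numbers 46 and 80 it was 0.24, 0.26 and -0.22. Without the run of columns the rho of Srgn with the cargo share over BMCPs was 0.35. Over mature mast cells the rho with the cargo share was 0.13 for Srgn, -0.22 for Ndst2 and 0.09 for Hs3st1. The signs of Ndst2 and Hs3st1 thus differed between the gates. Each gene and the cargo share have a library total in common, and no relation was tested.

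By Spearman's rho over cells of a gate, the genes most like Srgn in mature mast cells were Fcer1a (0.45), an IgE receptor chain, Sub1 (0.41) and Tmsb4x (0.40), out of 1047 widely read genes. Hs3st1 in BMCPs was closest to Gm37486 (0.41), H3f3b (0.40) and Zfp207 (0.38), out of 813 genes. The highest rho of Ndst2 was 0.39 in both gates, that of Hs2st1 0.37 and that of Hs3st1 0.34 in mature mast cells. The lowest rho was -0.37 for Srgn in mature mast cells, and in BMCPs it was -0.41 for Ndst2 and -0.39 for Hs3st1. All these values are extremes of many correlations and were not tested.

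Sulfate for all these enzymes is delivered as PAPS, made by Papss1 or Papss2 and carried into the Golgi by Slc35b2. Papss2 was the leading synthase, with 612 CPM in mature cells and 466 in BMCPs (log2 ratio 0.39), and it made up 84.4% and 86.2% of the pair per kilobase of exon. Papss1 had 93.1 and 61.4 CPM (log2 ratio 0.59, or 1.21 in the second block). Slc35b2 had 315 and 233 CPM (log2 ratio 0.44), with at least 50 reads in 62 mature mast cells and 34 BMCPs. The sulfate importer Slc26a2 had 9.88 and 38.98 CPM and the phosphatase Impad1 5.86 and 22.9 CPM, log2 ratios of -1.88 and -1.80, with 50 reads in no more than 7 cells of a gate each. In the first block the ratio of Impad1 was -0.89. Of the 7 supply genes, all above 5 CPM, 0 were at least 2-fold higher in mature mast cells and 3 in BMCPs. The shares over all genes were 9.9% and 19.2%, and the counts of so few genes were not tested against them.

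**Figure D5:**
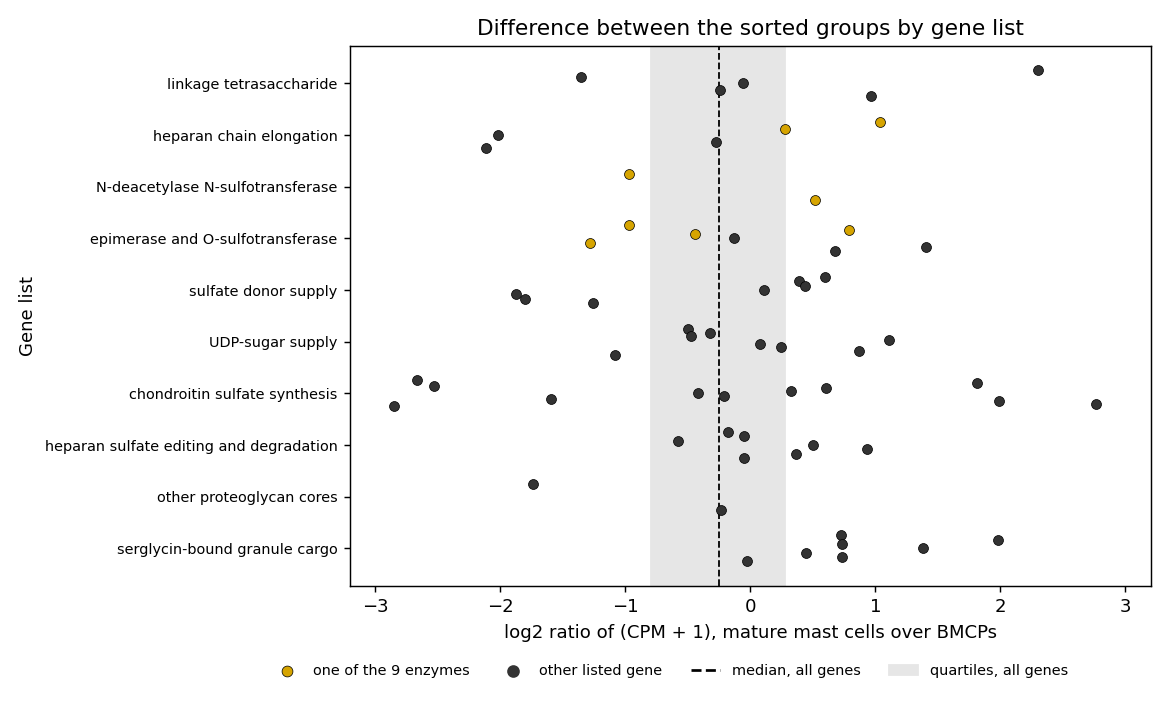
Log2 ratio of (CPM + 1), mature mast cells over BMCPs, for every gene with at least 5 CPM in either gate, by gene list, with the 8 of the 9 enzymes that reached it in gold. The dashed line is the median of all genes (-0.25) and the grey band runs between their quartiles (-0.79 and 0.28). The 7 cargo genes lie above the line, and the synthesis lists spread to both sides of it.

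Chondroitin sulfate, the other chain type that serglycin can carry, is made by a separate set of 16 listed genes, of which 11 reached 5 CPM. Of these, 3 were at least 2-fold higher in mature mast cells and 4 in BMCPs, beside 9.9% and 19.2% of all genes. Dse, an epimerase that makes dermatan sulfate, had 48.6 and 11.5 CPM (log2 ratio 1.99). Csgalnact2, which starts chondroitin chains, had 41.99 and 11.2 CPM (log2 ratio 1.82, or 0.31 and 4.37 in the blocks of columns). Chst15, the sulfotransferase that makes the doubly sulfated E unit, had 32.9 CPM in mature cells and 101 in BMCPs (log2 ratio -1.59). Chst12 had 51.8 and 69.5 CPM (log2 ratio -0.42, or 0.48 with ERCC scaling). Chpf2 had 52.95 and 34.5 CPM (log2 ratio 0.60, or 1.03 without the run of columns). From the median of cell CPM the log2 ratio of each of these named genes was 0, so the pooled ratios do not describe the median cell.

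Other proteoglycan core proteins were scarce beside serglycin, and 2 of 13 reached 5 CPM. Cd44 had 89.4 CPM in mature cells and 106 in BMCPs (log2 ratio -0.24, or 1.15 and -1.30 in the blocks of columns, 0.67 with ERCC scaling and 0.033 without the BMCP with most reads). Sdc4, syndecan 4, had 13.8 and 48.4 CPM (log2 ratio -1.74). Over the 83 genes of the synthesis, supply, degradation and core lists, the 9 enzymes among them, 54 reached 5 CPM. Of these, 7 (12.96%) were at least 2-fold higher in mature mast cells and 13 (24.1%) in BMCPs, beside 9.9% and 19.2% of all genes. Of the 54, 32 lay above and 22 below the all-gene median, and their median log2 ratio was -0.09.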

How the data were processed

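Single peritoneal cells were lysed in 96-well plates with ERCC spike-in RNA, reverse transcribed from oligo-dT and amplified over 23 PCR cycles, per the labels' protocols. As deposited, the values are raw read counts, with a row per gene and 1 column for each of 189 cells. The submitters' processing notes name GSNAP, HTSeq 0.5.3p3 and mm10. The annotation release and strand setting are not given in the sources used here. Symbols, exon lengths and coordinates came from GENCODE M21 on GRCm38, which matched 45143 of 46078 identifiers (98.0%). The 5 summary rows and 92 ERCC rows were left out of totals. Of the table's reads, 12.5% (mature) and 16.2% (BMCP) had no feature, and 2.97% and 3.24% were ambiguous.

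Cells with at least 100000 gene reads were kept, which left out BMCP numbers 6 (3978 reads) and 93 (36972). Doublets were not called, since wells were sorted to hold 1 cell. Counts were summed per gate. With no cell tied to a mouse, each gate was 1 sample, so the planned design held no test. Genes were called at a 2-fold difference among those with at least 5 CPM. The level of 50 reads was used to count cells that carry a gene, as well as 1 read after thinning to 100000. Scripts ran in Python 3.11.15, with TMM factors from edgeR 4.0.16, and were tested on simulated data. Alternatives covered scaling, the summary over cells, the cell filter, the added CPM, single cells, and length.

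The members and lists were chosen with earlier results of these data known. The text names the 10 members and, from each further pathway list, the 3 genes of highest summed CPM and the 2 of largest log2 ratio in size with at least 20 CPM. The genes most like a member were the 3 of highest Spearman's rho, for members read in at least 75% of a gate's cells. Where the highest rho was under 0.4 only its value is given. Some results that this rule would name are not reported here. Single cells are named where they held over 20% of a gate's reads of a member or moved its ratio by over 1.5 times. Genes named as paralogs of a member (Ndst3, Ndst4, Hs6st3), cells at the low end of Srgn or Ndst2, and markers at 0 were chosen after their values were seen.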

Additional observations from a re-analysis of the deposited data

How the results depend on the processing

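No paired analysis was possible because each gate is 1 pooled sample without a test, and the cell numbers that both gates share only name cells. The log2 ratio of Srgn (-0.17) was 0.74 with ERCC scaling, 0.53 with ERCC scaling without BMCP number 55, 0.075 with TMM factors and 0.028 with totals without the cargo genes. It was -0.11 from the mean and -0.000638 from the median of cell CPM, 0.17 and -0.45 in the first and second blocks of columns, 0.092 without the run of columns from number 52 to 93, -0.20 without BMCP numbers 46 and 80, -0.19 without the mature mast cell and -0.12 without the BMCP with most Srgn reads. The enzyme median (-0.18) was 0.58 with ERCC scaling, 0.40 with ERCC scaling without BMCP number 55 and 0.016 with TMM factors. It was 0.079 from the mean of cell CPM, 0.20 and 0.39 in the blocks and 0.27 without the run of columns. The summed enzymes (0.30) were 1.22 with ERCC scaling, 1.01 with ERCC scaling without BMCP number 55, 0.55 with TMM and 0.50 without cargo genes in the totals. They were 0.36 from the median of cell CPM and 0.21 and 0.41 in the blocks. Without BMCP numbers 46 and 80 the value was 0.27, without the top mature mast cell 0.29 and without the top BMCP 0.35. The all-gene median (-0.25) was 0.64 with ERCC scaling and 0.44 with ERCC scaling without BMCP number 55. It was -0.01 with TMM factors and -0.06 with totals without the cargo genes. The cause of these shifts was not tested.

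Srgn, whose values are given above, is not among the 45 named genes counted here. Over the log2 ratios of those 45, the sign changed for 10 with ERCC scaling, 11 when BMCP number 55 was also left out and 4 with TMM. The sign changed for 7 and 4 in the blocks, 7 without the BMCP with most reads of the gene and 2 without the run of columns. It changed for 0 with no cell filter, at least 500000 reads per cell or 0.1 CPM added. Extl1 (-2.02) became 0.69 with ERCC scaling without BMCP number 55, 3.03 in the first block and 0.040 without its top BMCP. Slc35d2 (-1.08) became 0.082 in the first block. From the median of cell CPM the ratio was 0 for B4galt7, Fam20b, Xylt2, Hs3st3a1, Papss1, Slc26a2, Impad1, Slc35d2, Sdc4 and Hgsnat, among others. The pooled ratios of these genes do not describe the median cell. With the longest transcript as length, Glce and Hs6st1 changed places in mature mast cells. The blocks, the run of columns, the wells 46, 55 and 80, and leaving out each cell were added after the data were seen. Ndst1, Glce, Hs6st1 and Xylt1 had 50 reads in at most 5 cells of a gate, which limits their precision.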

Other observations

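Enzymes that take heparan chains apart in the lysosome were read in both gates. Of the 11 editing and degradation genes 7 reached 5 CPM, and 6 of these lay above the all-gene median. None of the 7 was at least 2-fold higher in either gate, beside 9.9% (mature) and 19.2% (BMCP) of all genes. Naglu, an N-acetylglucosaminidase, had 192 CPM in mature cells and 135 in BMCPs (log2 ratio 0.50). Hgsnat, which acetylates the chain end, had 99.7 and 51.7 CPM (log2 ratio 0.93, or 1.23 in the second block of columns), and Sgsh, the N-sulfoglucosamine sulfohydrolase, had 32.4 and 48.9 CPM (log2 ratio -0.58). The glucuronidase Gusb had 100.1 and 104 CPM (log2 ratio -0.05). With ERCC scaling the ratios of Sgsh and Gusb were 0.32 and 0.86, and without the BMCP with most reads that of Sgsh was 0.29. In the blocks of columns Sgsh was -1.21 and 0.68. Without the run of columns from number 52 to 93, Gusb was 0.058. The extracellular 6-O-endosulfatase Sulf1 had 1 read in each gate. Sulf2 had 158 reads, all in mature mast cell number 79, heparanase Hpse had 1 read in the mature gate and 0 among BMCPs, and Hpse2 had 0.

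The 8 genes that supply sugar nucleotides all reached 5 CPM, with 4 on each side of the all-gene median. In each gate 1 of the 8 was at least 2-fold higher, beside 9.9% (mature) and 19.2% (BMCP) of all genes. Uap1, which makes UDP-N-acetylglucosamine, had 164 CPM in mature cells and 155 in BMCPs (log2 ratio 0.08, or -0.28 in the first block). Slc35d1, a Golgi and endoplasmic reticulum transporter of UDP-sugars, had 190 and 104 CPM (log2 ratio 0.87, or 1.30 in the second block). Ugp2, which makes UDP-glucose, had 49.03 and 69.7 CPM (log2 ratio -0.50, or 0.40 with ERCC scaling). Slc35d2, another UDP-sugar transporter, had 27.1 and 58.4 CPM, a log2 ratio of -1.08 that was -0.23 without the BMCP holding 45.9% of its reads and -0.037 without the run of columns.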
